A study of Capra hircus with 30 samples.

Results

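The granulosa cells of medium and small follicles were compared in the high fertility class of Ji'ning grey goats. The 2 groups were HMG (medium follicles) and HSG (small follicles), chosen by the group names in the labels. They hold 5 libraries each, so 10 of the 30 libraries of the series. High fertility meant more than 3 kids per birth in the design text, and the low fertility class, with fewer than 2, was used here only to ask whether the size difference was alike in both classes. All libraries came from total RNA of granulosa cells of 1 breed, and the labels give no age, cycle stage, treatment or animal. The study's methods word both limits slightly differently. They describe follicles taken from all goats of a class and granulosa cells freed from the oocyte by pipetting. The granulosa cells of a follicle size were then portioned out, with as few as 10 cells in a sample. Ribosomal RNA was removed before sequencing. Mixing of the follicles is stated for the oocytes, and which goats a granulosa cell library holds is not. The libraries of a group may therefore not be separate animals, and the spread between them, which every p-value below rests on, may be technical. Libraries are named by group and by the number in the labels (5, 7, 8, 9 or 10).

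Granulosa cells are the somatic cells that line the follicle and feed the oocyte through gap junctions. As a follicle grows they divide, respond to follicle-stimulating hormone through FSHR, and convert androgens of the theca into estradiol with the aromatase CYP19A1. Inhibins, activins and anti-Müllerian hormone from these cells, and BMP15 and GDF9 from the oocyte, are ligands of the TGF-beta family, which steers follicle growth and is known for its part in litter size in small ruminants.

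The values are FPKM, the number of fragments scaled by the length of the feature and the mapped total of the library, for 20125 features. Of these, 17946 carry an NCBI gene number. The other 2179 carry an identifier starting with MXLOC, whose meaning is not given in the sources used here, and are named by it. Summed FPKM ranged from 60745 to 82747 in HMG and from 33640 to 75845 in HSG. The study's list of mapped reads was used only for which libraries it names, not for its totals. FPKM without counts give no counting error. A value of exactly 0 can be a failed estimate as well as a missing transcript, so each gene is given with the number of libraries above 0.

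Before any gene was compared, 2 libraries stood apart. HSG-5 had 719 features above 0, against 4477 to 6328 in the other HSG libraries, and HMG-8 had 1521, against 5203 to 8117 in the other HMG libraries. HSG-5 also had the lowest summed FPKM of the 10. The study's list of mapped reads names the other 9 of these libraries but not HSG-5, so whether its values belong with the rest could not be checked. At 1 FPKM or more, the HMG libraries 5, 7, 8, 9 and 10 held 2184, 2069, 786, 2274 and 2588 features. The HSG libraries of the same numbers held 357, 2169, 2381, 1964 and 1813. Apart from HMG-8 and HSG-5, the libraries of both groups lay in 1 overlapping range. The means were 1980 ± 695 in HMG and 1737 ± 800 in HSG (SD, n = 5 each), a difference of 243.4 features, well within the SD of either group (exact permutation over 252 assignments, two-sided p = 0.524). This difference turned to -101.6 without HSG-5 (exact p = 0.905) and was 197.0 without both libraries (exact p = 0.286). In all, 6 measures of the libraries were compared in this way, and their adjusted p-values were 0.648 or more (exact permutation tests). Fewer cells of a kind and less RNA per cell cannot be told apart in such samples. Results that rest on HMG-8 or HSG-5 are given below with and without them.

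**Figure D1:**
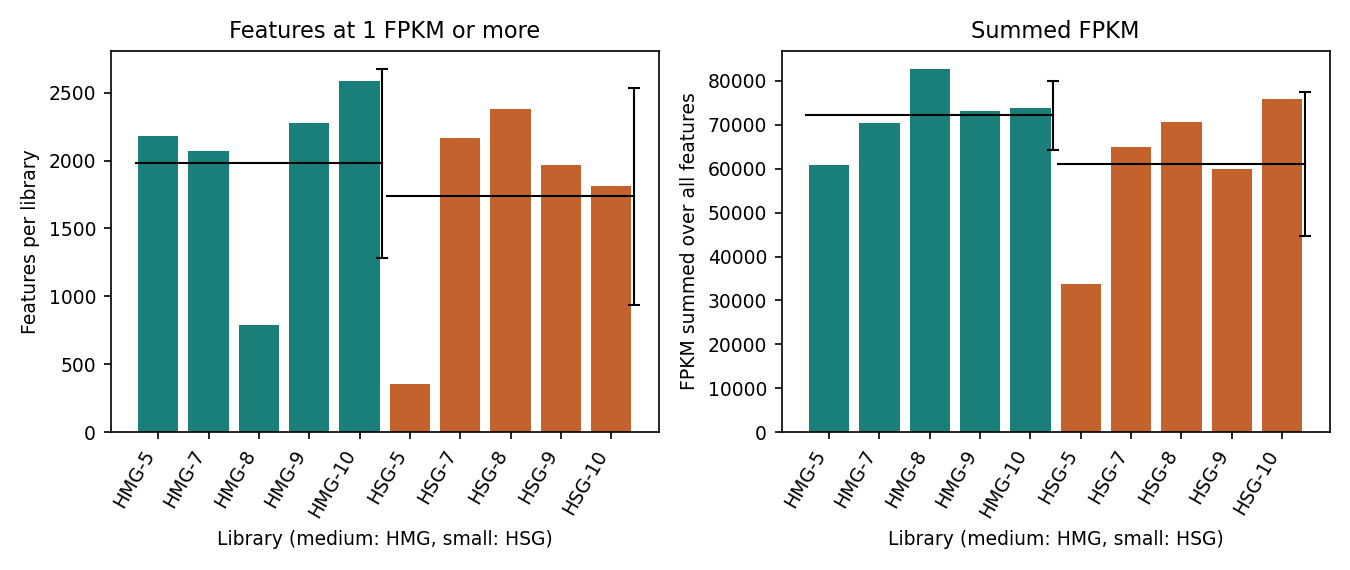
Features at 1 FPKM or more (left) and summed FPKM (right) in each of the 10 libraries, with horizontal lines at the group means and bars of 1 SD at their right end (n = 5). HMG-8 (786 features) and HSG-5 (357 features) lie below the other 8 libraries, and HSG-5 also has the lowest summed FPKM.

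Most features were found in few libraries of either size. Of the 20125 features, 4249 (21.1%) were listed at 0 in all 10 libraries, 12463 (61.9%) were above 0 in at most 2, and 682 (3.39%) in at least 8. A feature was above 0 in a mean of 1.33 of 5 HMG libraries and 1.08 of 5 HSG libraries. That is 26.5% of the values in HMG and 21.7% in HSG, and 26.2% in HSG without HSG-5. In HMG without HMG-8 it is 31.3%, so the shares of the sizes depended on which of the 2 libraries was set aside. There were 407 features above 0 in all 5 HMG libraries and 169 in all 5 HSG libraries, and 95 of these were shared. Without HMG-8 and HSG-5, 1334 features were above 0 in the 4 remaining HMG libraries, 904 in the 4 remaining HSG libraries, and 432 in all 8.

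**Figure D2:**
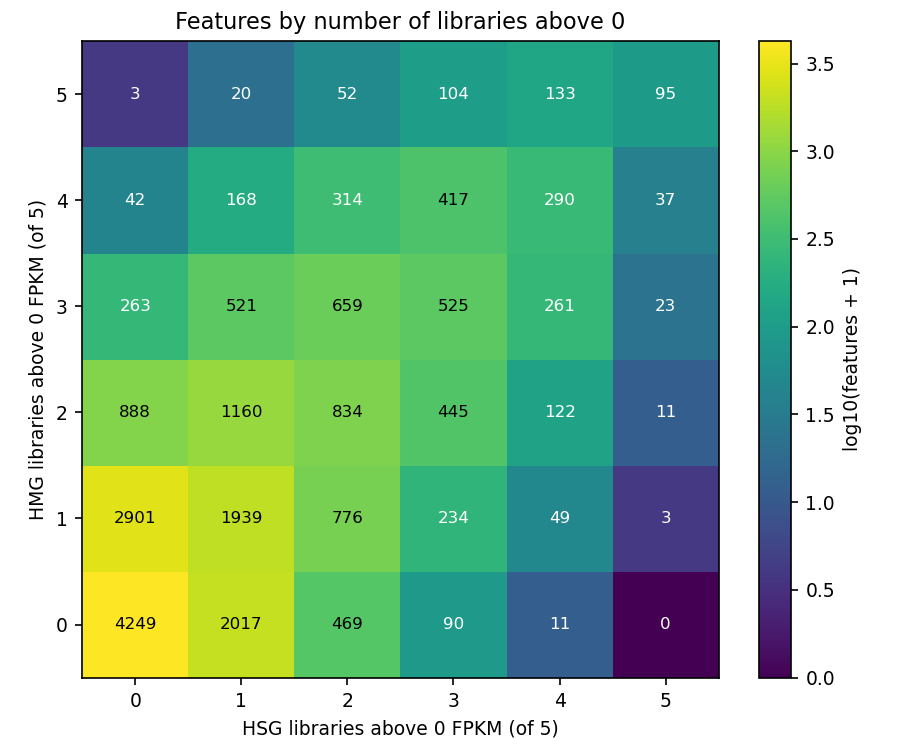
Number of features by how many HMG libraries (vertical axis) and how many HSG libraries (horizontal axis) had a value above 0, with colour on a log10 scale. The largest cell is the 4249 features at 0 in all 10 libraries, and the corners hold 3 features above 0 in all HMG and no HSG libraries and 0 features of the reverse kind.

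The 95 features above 0 in all 10 libraries held nearly all of the signal, 88.5% ± 1.17 of the FPKM of an HMG library and 87.4% ± 2.15 of an HSG library (SD, n = 5 each). Of these features, 54 have an NCBI gene number. Features without a number, among all 20125, held 73.2% ± 1.10 of the FPKM in HMG and 71.8% ± 3.36 in HSG (SD, n = 5 each). The most abundant feature, MXLOC_1189582, ranged from 4527 to 7526 FPKM in HMG and from 2381 to 7177 in HSG, and held 8.48% of the mean FPKM of the 10 libraries. It was chosen after its values were seen. The lowest of its values was in HSG-5, and the ranges of the groups overlapped.

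Among the features with a symbol, a block of 8 genes from LOC108636657 to LOC108636665 was the most abundant at both sizes. They are listed as protein-coding, their spans are 681 to 684 bases long, and no function is named for them in the table used here. Together they held 16.2% ± 1.38 of the FPKM in HMG (14.4% to 18.2%) and 16.4% ± 0.681 in HSG (15.3% to 17.1%; SD, n = 5 each). It was not tested whether reads were split among these like-sized features, which leaves the value of each one uncertain. The most abundant of them, LOC108636659, had 3599, 3984, 4675, 5236 and 4634 FPKM in HMG-5, HMG-7, HMG-8, HMG-9 and HMG-10. In HSG-5, HSG-7, HSG-8, HSG-9 and HSG-10 it had 1662, 4410, 4795, 3875 and 4356 FPKM. HSG-5 was the lowest library and the remaining 9 lay in 1 range. Its log2 fold change in HMG against HSG was 0.29 ± 0.30 (SE, 95% interval -0.31 to 0.89, limma adjusted p = 0.992), and 0.01 without HSG-5. For the 8 genes the log2 fold changes ran from -0.12 to 0.73 with all libraries and from 0.01 to 0.20 without HSG-5, where every one of the 8 was above 0.

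Of the 15 most abundant genes with a symbol, 4 have a known name. EGFR, the receptor that EGF-like factors of the ovulating follicle act on, had 76.8, 70.6, 37.2, 35.8 and 52.5 FPKM in the HMG libraries in the order of their numbers. In the HSG libraries it had 44.6, 53.8, 50.8, 29.5 and 43.0 FPKM. The 2 highest values were in HMG, and the groups overlapped otherwise (means 54.6 ± 18.8 and 44.3 ± 9.42, SD, n = 5 each; log2 fold change 0.25 ± 0.50 SE, limma adjusted p = 0.992). PXMP4, a membrane protein of peroxisomes, had 53.2 to 104 FPKM in HMG and 59.8 to 104 FPKM in HSG. SGCB, a sarcoglycan of the dystrophin complex, had 38.4 to 139 FPKM in HMG and 44.9 to 79.9 in HSG. NIPSNAP1, a mitochondrial protein, had 35.3 to 66.2 FPKM in HMG except for 3.72 in HMG-8, and 39.7 to 70.5 FPKM in HSG except for 5.21 in HSG-5. Its 2 low values were thus in the libraries with few features. The log2 fold changes of PXMP4, SGCB and NIPSNAP1 were 0.05, 0.42 and -0.35, with limma adjusted p-values of 0.992 or more.

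LOC108634774 and LOC108634447 depended most on HSG-5. The first had 461 FPKM in HSG-5 and 3.63 to 26.0 in the other HSG libraries, against 0.26 to 82.5 in HMG. The second had 0.03 FPKM in HSG-5 and 28.0 to 46.7 in the other HSG libraries, against 18.3 to 74.5 in HMG. Without HSG-5 their log2 fold changes moved from -0.99 to 0.11 and from 1.25 to 0.19. LOC102169935, which has no named function either, had 102 to 205 FPKM in HMG and 66.5 to 144 in HSG (log2 fold change 0.33 ± 0.41 SE, limma adjusted p = 0.992).

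**Figure D3:**
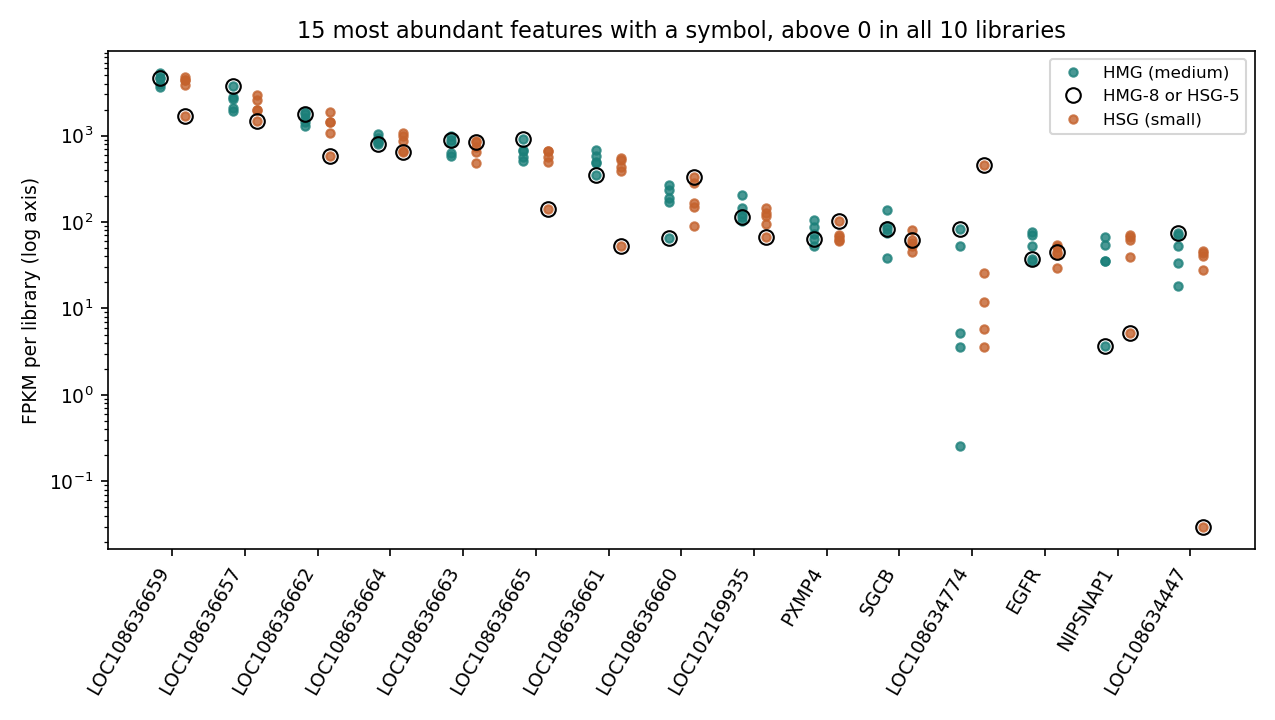
FPKM per library (log axis) of the 15 most abundant features with a symbol that were above 0 in all 10 libraries, with HMG and HSG side by side and HMG-8 and HSG-5 ringed. The groups overlap for each of the 15, and HSG-5 is far from its group for LOC108634774 (461 FPKM) and LOC108634447 (0.03 FPKM).

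Over the 95 shared features, 76 had a log2 fold change above 0 (higher in HMG) and 19 below 0, with a median of 0.28. Without HSG-5 the counts were 65 and 30 with a median of 0.12, without HMG-8 74 and 21 with 0.29, and without both 63 and 32 with 0.10. After every library was scaled to the same FPKM sum over features with an NCBI number, they were 60 and 35 with a median of 0.07. None of the 95 passed an adjusted p of 0.05 in limma (lowest 0.925), and 4 had an unadjusted p under 0.05, against 0 without HSG-5 and 1 without HMG-8. These 4 were HSPB3 (a small heat shock protein), LOC108636107, MXLOC_259096 and MXLOC_1253336, chosen after their values were seen. HSPB3 had 11.96, 16.3, 60.4, 3.44 and 8.04 FPKM in HMG and 0.31, 9.48, 8.40, 0.84 and 4.18 FPKM in HSG. Its highest value was in HMG-8, its lowest in HSG-5, and the groups overlapped. The coefficient of variation over libraries had a median of 39.4% in HMG, 53.2% in HSG and 32.4% in HSG without HSG-5.

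Libraries of the same size were no more alike than libraries of different sizes. Over the 6058 features tested, the Spearman correlation between a pair of libraries was 0.091 to 0.137 within HMG (median 0.118), 0.095 to 0.128 within HSG (median 0.122) and 0.097 to 0.152 between them (median 0.129). These pairs share libraries and the features are not independent, so no test is given. Over the 95 shared features the Pearson correlations of the log2 values had medians of 0.971, 0.974 and 0.976. The squared distances between HMG and HSG took 10.3% of the total over the 10 libraries. This was no more than other assignments of the libraries gave (exact permutation test, one-sided for a larger share, p = 0.937).

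Genes that differed between the sizes were sought with limma on log2(FPKM + 1), a scale on which the change of a feature near 0 is understated. Features above 0.5 FPKM in at least 5 of the 30 libraries were tested. None of the 6058 passed an adjusted p of 0.05 (0%). An unadjusted p under 0.05 was reached by 308 features (5.08%), where 303 are 5% of those tested, and 207 of them were higher in HMG (3.42%) and 101 lower (1.67%). Without HSG-5 the split turned to 139 higher (2.3%) and 213 lower (3.53%). Without HMG-8 it was 306 higher (5.1%) and 63 lower (1.05%), and without both 228 higher (3.82%) and 153 lower (2.56%). A log2 fold change above 0 was found for 3398 features (56.1%) and one below 0 for 2618 (43.2%), and without HSG-5 for 2986 (49.5%) and 3003 (49.8%). Without HMG-8 these counts were 3626 (60.5%) and 2329 (38.8%), and without both 3225 (54%) and 2697 (45.2%). The lean towards HMG over all features was thus absent without HSG-5, greater without HMG-8 and smaller without both. The median standard error was 0.45 on the log2 scale. With HMG and HSG alone in the fit, 119 features had an unadjusted p under 0.05, and 0 were called.

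The 12 genes with a symbol and the lowest p that were higher in HMG were near 0 in HSG. All of them were listed at 0 in HSG-5, where 719 of all 20125 features were above 0. Of the 12, 9 were above 0 in at most 1 HSG library. TFAP4, a helix-loop-helix transcription factor of the MYC network, had 1.26, 4.81, 0, 1.32 and 2.38 FPKM in HMG-5, HMG-7, HMG-8, HMG-9 and HMG-10. In HSG it was above 0 in HSG-8 alone, at 0.02 FPKM. The groups overlapped through HMG-8, the HMG library with the fewest features. Its log2 fold change was 1.33 ± 0.29 (SE, 95% interval 0.75 to 1.92) with a limma adjusted p of 0.230, and without HMG-8 it was 1.67 with an adjusted p of 0.00127, past the threshold. TEX261 had 0, 2.64, 2.14, 0.47 and 1.55 FPKM in HMG and 0.52 FPKM in HSG-8, the only HSG library above 0. Its adjusted p was 0.477, and 0.0445 without HMG-5. For both genes, the library whose removal gave a call was the HMG library where the gene was listed at 0. Both failed the filter on low values in some alternatives and were not tested there. TFAP4 was past the threshold in 2 alternatives and not in 12, and TEX261 in 1 and not in 11. Most of the genes named had a value in 18.

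ZC3H11A, a zinc finger protein of messenger RNA export, had 2.23, 1.0, 22.5, 1.98 and 0.51 FPKM in HMG and 0.07 FPKM in HSG-9, the only HSG library above 0. The highest value was in HMG-8, and all HMG values were above all HSG values. Its log2 fold change was 1.86 ± 0.48 (SE, limma adjusted p = 0.477). TMPO, a protein of the inner nuclear membrane that binds lamins, had 2.35, 4.13, 5.94, 3.89 and 1.83 FPKM in HMG and 0, 0.23, 1.09, 0 and 0.39 FPKM in HSG. It was thus found in all 5 HMG and 3 of 5 HSG libraries, with no overlap (log2 fold change 1.77 ± 0.54 SE, limma adjusted p = 0.683). KLHL20, which brings substrates to a cullin ubiquitin ligase, was above 0 in 5 of 5 HMG libraries, at 1.58, 5.20, 0.46, 1.79 and 0.77 FPKM, and listed at 0 in all 5 HSG libraries (limma adjusted p = 0.524).

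Among the other genes of this set, SPRY2, an inhibitor of receptor tyrosine kinase signalling, had 3.56, 1.55, 0, 0.12 and 0.83 FPKM in HMG. TRHR, the receptor of thyrotropin-releasing hormone, had 3.38, 0.60, 0, 3.19 and 8.62 FPKM in HMG. Both were listed at 0 in all HSG libraries and in HMG-8, with limma adjusted p-values of 0.608 and 0.697. TBCC, a cofactor of tubulin folding, had 0, 0.33, 32.2, 3.62 and 3.25 FPKM in HMG and 0.06 FPKM in 1 HSG library. PIGW, an enzyme of GPI anchor synthesis, had 0, 2.26, 6.97, 3.77 and 2.90 FPKM in HMG and at most 0.84 in HSG. PEX13, a part of the peroxisomal import machinery, had 1.93, 2.45, 11.1, 0 and 4.16 FPKM in HMG and at most 0.97 in HSG. For TBCC, PIGW and PEX13, as for ZC3H11A, TMPO and HEPHL1, the highest of the 5 HMG values was in HMG-8. HEPHL1, a copper-dependent ferroxidase, had 0 to 6.85 FPKM in HMG, and C28H10orf107 had 0.55 to 5.72. The adjusted p-values of the 12 genes lay between 0.230 and 0.697.

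The 12 genes with the lowest p that were lower in HMG were listed at 0 in HMG-8. In that library 1521 of all 20125 features were above 0. Of the 12, 7 were above 0 in at most 1 HMG library. PAQR7, a membrane receptor of progesterone, was listed at 0 in all 5 HMG libraries and had 21.5, 0, 2.08, 6.36 and 0 FPKM in HSG-5, HSG-7, HSG-8, HSG-9 and HSG-10. CAMK2G, a calmodulin-dependent kinase, was listed at 0 in all 5 HMG libraries and had 18.3, 1.53, 1.87, 0 and 0 FPKM in HSG. Both were above 0 in 3 of 5 HSG libraries and highest in HSG-5 (limma adjusted p = 0.683 for each), and without HSG-5 neither passed the filter. CDS2, an enzyme of phosphatidylinositol synthesis, had 47.3 FPKM in HSG-5 and at most 2.29 in the other HSG libraries, against at most 0.27 in HMG. Its log2 fold change moved from -1.63 to -0.67 without HSG-5.

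GPM6B, a proteolipid glycoprotein, was above 0 in all 5 HSG libraries, at 6.76, 1.37, 3.02, 3.92 and 1.22 FPKM, and had 1.91, 0, 0, 0.16 and 0.07 FPKM in HMG. HMG-5 alone reached into the range of HSG (log2 fold change -1.56 ± 0.49 SE, limma adjusted p = 0.683). HS6ST2, which adds sulfate to heparan sulfate chains, had 0.17, 1.49, 2.2, 1.45 and 3.84 FPKM in HSG and 0.87 FPKM in HMG-10, the only HMG library above 0. AZIN1, which holds back the antizyme that degrades ornithine decarboxylase, had 0, 7.45, 2.78, 2.40 and 3.06 FPKM in HSG and 0, 1.59, 0, 0.67 and 0 FPKM in HMG. For HS6ST2 and AZIN1, only HSG-5 lay within the range of HMG. Their log2 fold changes were -1.18 and -1.33, and without HSG-5 -1.46 and -1.77 (limma adjusted p = 0.476 and 0.432).

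CD200, a membrane glycoprotein that restrains myeloid cells, had 0, 1.77, 0, 1.1 and 15.95 FPKM in HSG and was listed at 0 in HMG. NT5C3A, a pyrimidine nucleotidase, had 1.57, 0, 1.95, 7.20 and 0 FPKM in HSG and was listed at 0 in HMG. FOXA2, a forkhead factor best known from endoderm, had 0, 5.39, 1.34, 0 and 3.13 FPKM in HSG and 0.10 FPKM in 1 HMG library. Each of these 3 was found in 3 of 5 HSG libraries, so 2 HSG libraries were like HMG. TMEM5, SLA and C15H11orf58 reached 6.56, 3.38 and 17.9 FPKM in HSG and 0.04, 0.83 and 0.70 FPKM in HMG. The adjusted p-values of the 12 genes lay between 0.683 and 0.781 in limma.

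**Figure D4:**
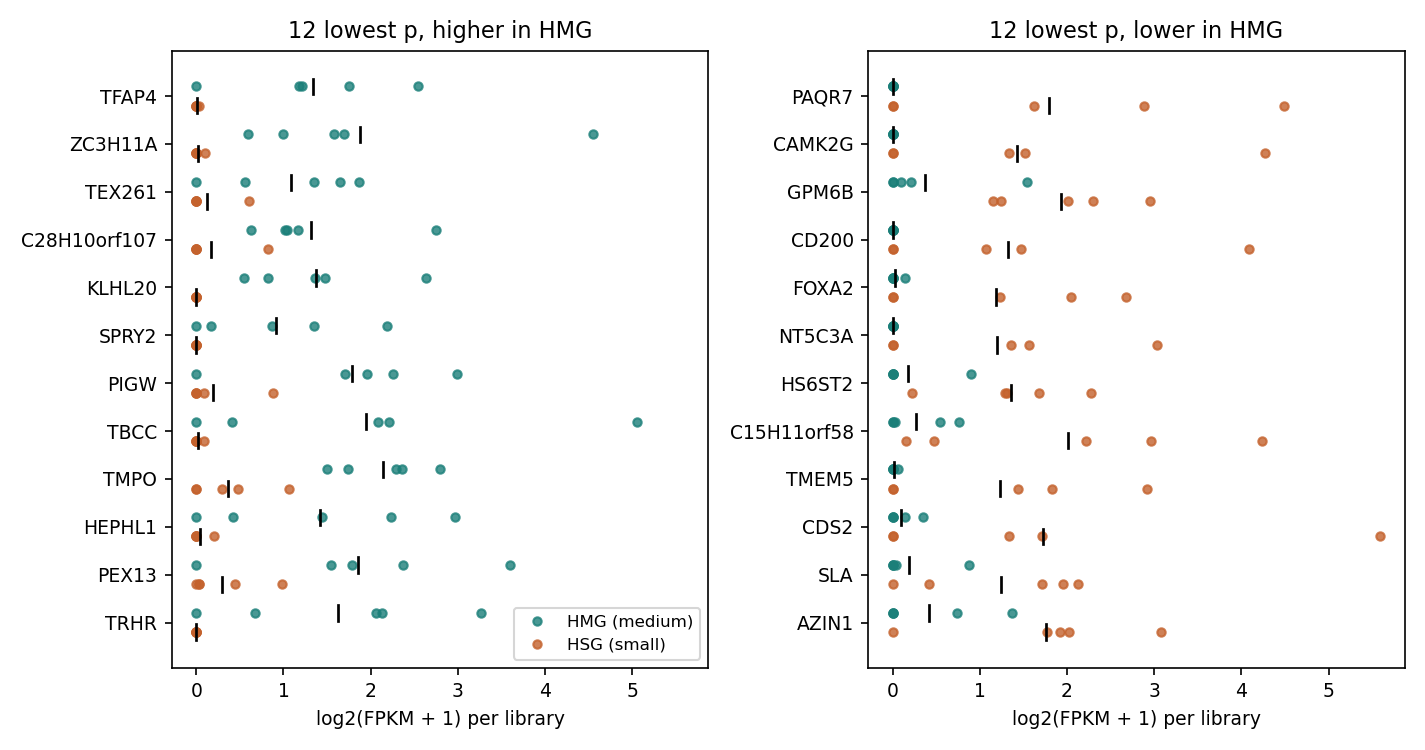
log2(FPKM + 1) per library of the 12 genes of lowest unadjusted p that were higher in HMG (left) and the 12 that were lower (right), with black ticks at the means of the 5 libraries of each group. Most values of the group with the lower mean lie at or near 0, with exceptions such as GPM6B in HMG-5 (1.91 FPKM) and TMPO in HSG-8 (1.09 FPKM), and none of the 24 genes passed the threshold (limma adjusted p between 0.230 and 0.781).

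All 5 libraries of 1 size exceeded all 5 of the other for 14 of the 6058 features, 12 higher in HMG (0.198%) and 2 higher in HSG (0.033%). For values without ties, random assignment of the libraries separates the groups fully with a probability of 0.00794, more than these shares. Ties at 0 make it rarer. Beside TMPO, ZC3H11A and KLHL20, the 12 included CXXC4, FRK, GTF3C4, P2RY1, MXLOC_104445, MXLOC_1085223, MXLOC_1197577 and MXLOC_639276, which were chosen after their values were seen. P2RY1, a receptor of ADP, had 1.01, 1.31, 0.23, 1.55 and 1.15 FPKM in HMG and 0.04 FPKM in HSG-10, the only HSG library above 0. CXXC4, an inhibitor of WNT signalling, had 2.05, 2.11, 0.56, 2.07 and 1.45 FPKM in HMG and 0, 0.13, 0.24, 0.30 and 0 FPKM in HSG. In both the lowest HMG value was in HMG-8 (limma adjusted p = 0.777 and 0.965). The most abundant of the 12, MXLOC_1085223, had 312, 328, 314, 318 and 298 FPKM in HMG and 95.8, 185, 236, 133 and 293 FPKM in HSG. Its HMG libraries had an SD of 10.8 around a mean of 314 FPKM, while those of HSG had an SD of 79 around 189 (n = 5 each, limma adjusted p = 0.982).

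The 2 features of the reverse kind were ATP11B and PLCL1. ATP11B, a phospholipid flippase, had 0.55, 1.78, 0.65, 1.25 and 1.27 FPKM in HSG and 0.14, 0, 0, 0.09 and 0.07 FPKM in HMG. PLCL1, a catalytically inactive relative of phospholipase C, had 3.70, 0.57, 0.64, 1.60 and 1.27 FPKM in HSG and 0, 0, 0, 0.47 and 0.44 FPKM in HMG. Both were thus above 0 in every HSG library, HSG-5 included (limma adjusted p = 0.914 and 0.856).

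By detection alone, 3 of the 20125 features (0.0149%) were above 0 in all 5 HMG and no HSG libraries, and 0 in all 5 HSG and no HMG libraries. They were KLHL20, FRK (a tyrosine kinase of the Src family) and GTF3C4 (a subunit of a factor of RNA polymerase III). FRK had 0.05, 0.05, 0.26, 3.34 and 0.41 FPKM and GTF3C4 0.39, 0.06, 13.9, 0.58 and 0.21 FPKM in HMG. Single libraries, HMG-9 and HMG-8, carried most of these values. In at least 4 libraries of 1 size and none of the other, there were 45 features on the HMG side (0.224%) and 11 on the HSG side (0.0547%). Of the 11, 10 were listed at 0 in HSG-5, as most features were. Without HMG-8 and HSG-5, 33 features were above 0 in all 4 HMG and no HSG libraries and 13 in the reverse.

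The 11 features on the HSG side, named here after their values were seen, included FOXO3, FSTL1, PARD3 and VASH1. FOXO3, the forkhead factor that restrains the activation of primordial follicles, had 0, 2.16, 0.42, 0.99 and 0.02 FPKM in HSG. FSTL1, a secreted glycoprotein related to follistatin, had 0, 0.38, 0.78, 3.28 and 2.0 FPKM in HSG. PARD3, a scaffold of cell polarity, had 0, 0.25, 1.08, 0.96 and 0.58 FPKM in HSG. All 3 were listed at 0 in the 5 HMG libraries, with limma adjusted p-values of 0.982, 0.781 and 0.982. The 45 features on the HMG side included FOXA1 (3.99, 0.12, 0, 1.10 and 0.02 FPKM), PRDM1 (0.48, 1.98, 0, 0.17 and 1.17 FPKM) and RBM46 (6.10, 6.15, 0, 2.34 and 0.62 FPKM). In each of these 3 the HMG library at 0 was HMG-8.

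Genes that define granulosa cells were near the floor at both sizes. Of 18 such genes, 17 were analysed here, 13 were above 0 in any of the 10 libraries and 0 in 8 or more. AMH, INHA, SERPINE2 and ESR2 were listed at 0 in all 10 libraries, and FSHR was above 0 in HSG-9 alone, at 1.26 FPKM. Most values of the defining markers of the labelled cell type were thus 0, as were most values of all features. CYP19A1, the aromatase, was above 0 in HMG-10 alone among the HMG libraries, at 1.85 FPKM, and in all HSG libraries but HSG-5, between 0.02 and 0.22 FPKM. INHBA, a subunit of activins and inhibins, had 26.8 FPKM in HSG-5 and at most 0.18 FPKM in the 5 other libraries where it was above 0. INHBB was above 0 in 2 libraries of each size, at most 1.28 FPKM in HMG and 7.08 in HSG. KITLG, the ligand of the oocyte receptor KIT, was above 0 in 4 HMG libraries, at 0.21 to 2.06 FPKM, and in 2 HSG libraries, at 0.14 and 3.12. GATA4 was above 0 in 4 HMG libraries and 1 HSG library, and GATA6 in 3 of each, and they reached 1.01 and 6.84 FPKM. Of the list, 27.1% of the values were above 0 in HMG and 24.7% in HSG, beside 26.5% and 21.7% over all features. Only INHBA, GATA6 and KITLG passed the filter on low values, with limma adjusted p-values of 0.982 or more. HSG-5 also held the highest values of LHCGR (38.7 FPKM) and NR0B1 (77.5 FPKM), chosen after they were seen, which were at most 0.92 and 0.09 in the other 9 libraries.

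Genes of steroid synthesis and cholesterol supply were as sparse. Of 18 genes analysed here, 14 were above 0 in any library, and 22.2% of their values were above 0 in each size. STAR, which moves cholesterol into mitochondria, was above 0 in 2 HMG libraries, at 3.06 and 0.03 FPKM, and in 1 HSG library, at 1.93 FPKM. SOAT1, which esterifies cholesterol, was above 0 in 4 HMG and 2 HSG libraries, at most 1.15 and 2.07 FPKM. Of the 5 members tested, 2 were higher and 3 lower in HMG, with a median log2 fold change of -0.17 beside 0.07 over all features.

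Ligands, receptors and targets of the BMP, activin and TGF-beta pathways were found more often than most features. Of 36 members, 34 were above 0 in any library and 5 in 8 or more, and 47.8% of their values were above 0 in HMG and 36.7% in HSG. Without HMG-8 and HSG-5 the shares were 55.6% and 45.8%, beside 31.3% and 26.2% over all features. Among the receptors, ACVR2A, a type II receptor of activin, was found in all 5 HMG libraries, between 0.04 and 1.59 FPKM, and in 4 HSG libraries, between 0.12 and 2.2. BMPR2, the type II receptor of BMPs, was above 0 in 5 HMG libraries, at 0.01 to 0.97 FPKM, and in 3 HSG libraries, at 0.16 to 1.43. TGFBR1 and TGFBR2, the receptor pair of TGF-beta, pointed in opposite directions and were named after their values were seen. TGFBR1 had 1.2, 0.01, 0, 2.31 and 1.29 FPKM in HMG and at most 0.21 FPKM in HSG (log2 fold change 0.76 ± 0.35 SE, limma adjusted p = 0.961). TGFBR2 had 0, 1.33, 0.98, 0.07 and 4.46 FPKM in HSG and was above 0 in 2 HMG libraries, at 1.28 and 0.05 (log2 fold change -0.70 ± 0.30 SE, limma adjusted p = 0.925). Of the ligands, TGFB2 was above 0 in 4 HMG and 3 HSG libraries, at most 0.50 and 2.45 FPKM. Of the transducers, SMAD4, the common partner, was above 0 in 4 libraries of each size (0.46 to 2.16 FPKM in HMG, 0.04 to 2.36 in HSG), and SMAD5 in 5 HMG and 4 HSG libraries. SKIL, a corepressor of SMADs, was above 0 in 4 of each, at most 3.17 and 3.68 FPKM. The values of all these members overlapped between the sizes, and all 36 members were listed at 0 in HSG-5, as most features were. Of the 19 tested, 9 were higher and 10 lower in HMG (median -0.03), and 0 passed the threshold.

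NOTCH genes were found in 33.8% of the values in HMG and 20.8% in HSG, or 39.4% and 25.0% without HMG-8 and HSG-5. Over all features these shares were 26.5% and 21.7%, or 31.3% and 26.2%. The receptor NOTCH2 was above 0 in 4 HMG libraries, at 0.07 to 0.64 FPKM, and in 2 HSG libraries, at 1.53 and 1.49. HEY2, a target of the pathway, was above 0 in 4 HMG and 3 HSG libraries, at most 3.41 and 0.63 FPKM. MAML2, a coactivator of the pathway, had 1.76, 1.18, 0, 1.34 and 1.23 FPKM in HMG and 0, 0, 0.15, 0 and 0.04 FPKM in HSG. All its HMG values but that of HMG-8 were above those of HSG (log2 fold change 0.94 ± 0.38 SE, limma adjusted p = 0.900). MAML3, MIB1 and ADAM10 were above 0 in 3, 3 and 3 HMG and 3, 3 and 2 HSG libraries. Of the 26 members 7 were tested, 4 higher and 3 lower in HMG, with 1 at an unadjusted p under 0.05 and 0 past the threshold.

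In the WNT list, 37.9% of the values were above 0 in HMG and 31.7% in HSG, beside 26.5% and 21.7% over all features. FZD3, a WNT receptor, was above 0 in 4 HMG libraries, at 0.51 to 2.96 FPKM, and in all 5 HSG libraries, at 0.27 to 4.60. APC, which helps degrade beta-catenin, was above 0 in 5 HMG and 4 HSG libraries, at most 3.77 and 1.86 FPKM. CTNNB1, beta-catenin itself, was above 0 in 3 HMG and 4 HSG libraries, at most 0.68 and 3.85 FPKM. These ranges overlapped, and of the 9 members tested 5 were higher and 4 lower in HMG. In the Hippo list, 49.1% of the values were above 0 in HMG and 37.3% in HSG, or 55.7% and 46.6% without HMG-8 and HSG-5. Without these libraries the shares over all features were 31.3% and 26.2%. YAP1 and its partner TEAD1, the transcriptional end of the pathway, were above 0 in 4 and 5 HMG and in 3 and 3 HSG libraries, and reached 3.09 and 1.63 FPKM in HMG and 2.57 and 2.6 in HSG. Of the 12 tested Hippo genes 9 were higher in HMG, with a median log2 fold change of 0.17, which was 0.12 without HSG-5 and 0.15 without both libraries. Over all features tested, 56.1% were higher in HMG, with a median of 0.07 (0 without HSG-5, 0.05 without both). In the insulin, IGF and PI3K list, 10 of 15 tested were higher (median 0.08). IGF1 had 0.57, 3.94, 0, 1.77 and 1.98 FPKM in HMG and 0, 0, 1.07, 0.03 and 1.21 FPKM in HSG, with overlap (log2 fold change 0.75 ± 0.61 SE, limma adjusted p = 0.982). None of the members of these 3 lists had an unadjusted p under 0.05.

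Of 35 genes of cell division, 24 were above 0 in any library, and 26.9% of the values were above 0 in HMG and 19.4% in HSG, close to all features. CDKN1A, the cell cycle inhibitor p21, was the exception and was above 0 in all 10 libraries. It had 29.4, 24.6, 13.3, 11.4 and 17.8 FPKM in HMG and 40.2, 11.6, 15.6, 5.24 and 25.6 FPKM in HSG. Its highest and lowest values were both in HSG, so the sizes overlapped throughout (log2 fold change 0.17 ± 0.79 SE, limma adjusted p = 0.997). CCND2, the cyclin that responds to follicle-stimulating hormone, was above 0 in 4 HMG libraries, at 0.07 to 0.55 FPKM, and in 3 HSG libraries, at 0.23 to 1.11. MKI67, a marker of proliferation, was above 0 in 3 libraries of each size, at most 0.14 FPKM in HMG and 1.29 in HSG. PLK1, a mitotic kinase, was above 0 in 4 HMG and 2 HSG libraries, with 8.94 FPKM in HMG-8. Of the 11 members tested, 8 were higher in HMG (median log2 fold change 0.09), beside 56.1% of all features tested (median 0.07).

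Among genes of apoptosis, MCL1, which protects cells, had 0.74, 0.41, 0, 3.30 and 2.04 FPKM in HMG and 0, 0.57, 0.15, 0 and 0.07 FPKM in HSG. It had the lowest p of that list (log2 fold change 0.81 ± 0.33 SE, limma adjusted p = 0.925). XIAP, an inhibitor of caspases, was above 0 in 3 HMG and 5 HSG libraries, at most 6.14 and 3.56 FPKM. Of the 10 tested, 6 were higher in HMG, beside 56.1% of all features tested. In the list of the follicle matrix, HAS2, the hyaluronan synthase of cumulus expansion, was above 0 in 5 HMG and 4 HSG libraries, at most 2.15 and 0.93 FPKM. VCAN, the proteoglycan versican, was above 0 in 4 HMG and 3 HSG libraries, at most 2.85 and 2.53 FPKM. Of the 6 tested members of the matrix list, 5 were lower in HMG (median log2 fold change -0.19), beside 43.2% of all features tested. Of the cell junction genes, GJA1, the main connexin of granulosa cells, had 1.25, 0, 0, 4.92 and 2.22 FPKM in HMG and 0, 0, 1.39, 0 and 1.04 FPKM in HSG. GJC1, another connexin, was above 0 in 4 libraries of each size, at 0.14 to 2.11 FPKM in HMG and 0.88 to 3.24 in HSG. Their log2 fold changes were 0.63 ± 0.49 and -0.70 ± 0.42 (SE), and neither passed the threshold (limma adjusted p = 0.982 for each).

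With all libraries, genes of RNA splicing had the largest median among the lists with 10 or more tested members. Of 17 tested, 11 were higher in HMG, with a median log2 fold change of 0.37 (0.26 without HSG-5, 0.38 without both) beside 0.07 over all features, and 2 had an unadjusted p under 0.05. SRSF1, a splicing factor, had 4.40, 0.05, 20.8, 1.72 and 0.35 FPKM in HMG and 0, 0.41, 0.35, 0 and 1.22 FPKM in HSG. HMG-8 held its highest value, and the groups overlapped (limma adjusted p = 0.925). HNRNPA1, an RNA-binding protein that guides splice site choice, had 17.9, 0.61, 0, 2.12 and 5.42 FPKM in HMG and 0, 0, 0.62, 0.17 and 9.53 FPKM in HSG, with overlap. Of 23 tested genes of the cytosolic ribosome, 17 were higher in HMG (median 0.32, or 0.16 without HSG-5 and 0.39 without both), and 0 had an unadjusted p under 0.05. Among all features tested, 56.1% were higher in HMG. RPS6 had 0, 3.9, 0, 22.98 and 2.7 FPKM in HMG and 0, 0, 0.28, 2.93 and 0.52 FPKM in HSG. EEF1A1, an elongation factor among the most abundant messages of most cells, had 5.16, 8.36, 0, 2.94 and 2.65 FPKM in HMG and 0, 1.12, 2.85, 4.41 and 0.63 FPKM in HSG. Both sets of values overlapped, and the genes were listed at 0 in HMG-8 and HSG-5 alike.

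ATP5A1, a subunit of the mitochondrial ATP synthase, had 0, 4.15, 38.9, 3.03 and 0.75 FPKM in HMG and 0, 1.18, 0.33, 0 and 0.14 FPKM in HSG. Again the highest value was in HMG-8 (log2 fold change 1.75 ± 0.62 SE, limma adjusted p = 0.781). Of the stress and immediate early genes, EGR1, an early response factor, was above 0 in 4 HMG and 3 HSG libraries, at 0.41 to 3.95 and 0.28 to 0.80 FPKM (log2 fold change 0.78 ± 0.39 SE, limma adjusted p = 0.965). HSPA9, a mitochondrial chaperone named after its values were seen, had 0, 4.14, 0.63, 0.61 and 0.03 FPKM in HSG and 0.04 FPKM in HMG-10. It was the member of that list with an unadjusted p under 0.05 (limma adjusted p = 0.925). Of the chromatin regulators, DNMT3A, a DNA methyltransferase, was above 0 in 5 HMG and 4 HSG libraries, at 0.20 to 1.10 and 0.07 to 0.98 FPKM, and 0 of 15 tested had an unadjusted p under 0.05.

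**Figure D5:**
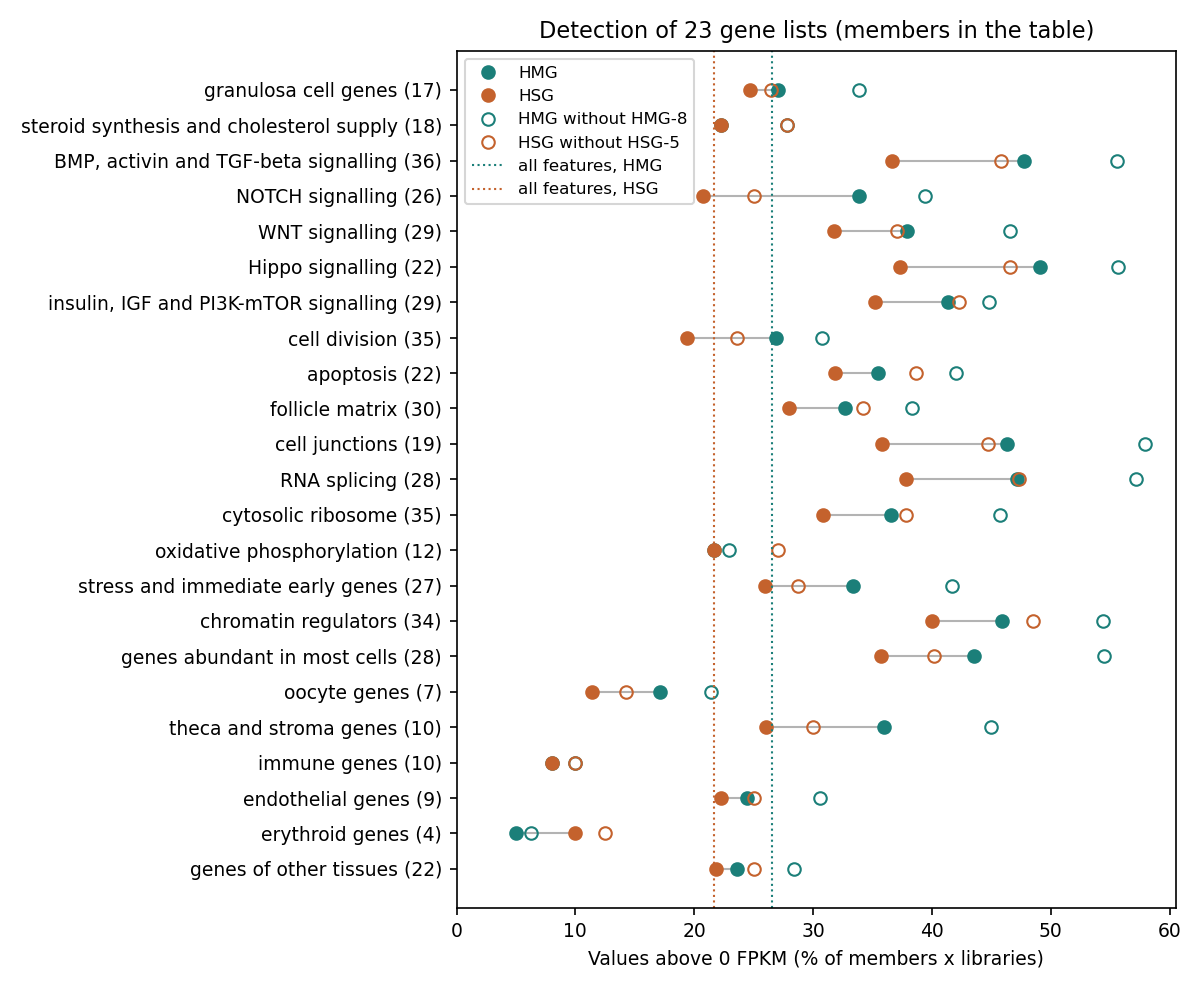
Share of values above 0 FPKM (members times libraries) for 23 gene lists in HMG and HSG (filled circles) and without HMG-8 and HSG-5 (open circles), with dotted lines at the shares of all features (26.5% in HMG and 21.7% in HSG) and the number of members in the table in brackets. BMP, activin and TGF-beta genes reach 47.8% in HMG against 36.7% in HSG, and 55.6% against 45.8% without HMG-8 and HSG-5.

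Markers of other cells that could be in the samples were given beside these values. Of 14 oocyte genes listed, 7 were analysed here, and 4 of these were above 0 in any library. The summed level of the 7 ran from 0 to 7.27 FPKM in HMG and from 0 to 10.2 in HSG. ZP2 had 6.93 FPKM in HMG-7 and DAZL 8.12 FPKM in HSG-8, and each was listed at 0 in the other 9 libraries, as GDF9 and BMP15 were in all 10. Of 12 theca and stroma genes listed, 10 were analysed here, among them STAR, which is also in the steroid list. Of these 10, 8 were above 0 in any library, with sums of 0 to 4.66 FPKM in HMG and 0.31 to 2.56 in HSG. Of 12 immune genes listed, 10 were analysed here, and 5 of these were above 0 in any library. Their sums were 0 to 5.74 FPKM in HMG and 0 to 1.3 in HSG. PTPRC, the leukocyte antigen CD45, was listed at 0 in all 10 libraries. Of 9 endothelial genes 7 were above 0 in any library (0 to 4.0 and 0.25 to 6.45 FPKM). Of 8 erythroid genes listed, 4 were analysed here and 2 were above 0 in any library (0 to 0.04 and 0 to 5.47 FPKM). Values above 0 made up 36% in HMG and 26% in HSG for theca and stroma genes, beside 26.5% and 21.7% over all features. For oocyte, immune, endothelial and erythroid genes they were 17.1% and 11.4%, 8% and 8%, 24.4% and 22.2%, and 5% and 10%. The granulosa genes summed to 0 to 5.98 FPKM in HMG and 2.09 to 143 in HSG, with the highest sum in HSG-5. Genes of other tissues were found in 23.6% of the values in HMG and 21.8% in HSG, with sums of 0.05 to 16.2 FPKM in HMG and 1.82 to 72.8 in HSG. GCG, the glucagon gene, had 61.6 FPKM in HSG-5 and at most 0.22 in the other 9 libraries, and was named after its values were seen. The isolated high values of HSG-5 were thus found in a gene of another tissue as well as in granulosa genes. Among them, ACTA1, the actin of skeletal muscle, had 10.65, 0.09, 0, 0 and 0.56 FPKM in HMG and 11.2, 8.41, 0, 0 and 0.25 FPKM in HSG. Of 28 genes abundant in most cells, 43.6% of the values were above 0 in HMG and 35.7% in HSG, and ACTB was above 0 in 3 HMG and 4 HSG libraries, at most 1.54 and 1.60 FPKM. The part of other cells in the differences between sizes was not tested.

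Whether the size difference was the same in the low fertility class was asked with an interaction term, (HMG - HSG) - (LMG - LSG), where LMG and LSG are the medium and small follicles of that class (5 libraries each). Limma called 0 of 6058 features (0%), 332 had an unadjusted p under 0.05 (5.48%), and the lowest adjusted p was 0.870. The lowest p belonged to MXLOC_1289665. All 5 LMG libraries had it, between 0.86 and 2.7 FPKM, whereas the 5 LSG libraries were listed at 0. In the high fertility class it had 0, 0, 0, 0.40 and 0.07 FPKM in HMG and 1.63 FPKM in HSG-8 alone. TFAP4 was found in a single LMG library (0.08 FPKM) and a single LSG library (0.92 FPKM), and its interaction was 1.5 ± 0.41 (SE, log2 scale, limma adjusted p = 0.870). TMPO was above 0 in 5 LMG and 4 LSG libraries, with medians of 1.60 and 1.22 FPKM. A size difference particular to high fertility was thus not called for any feature.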

How the data were processed

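The authors deposited 1 table of FPKM values with 2 decimals for 20125 features in 30 libraries. Per the study's methods, only reads aligned to 1 place with few mismatches were kept, picard took out duplicates, and Cufflinks gave the FPKM. The aligner and genome build are not given in the sources used here. The methods name Ensembl genes, but the table holds NCBI gene numbers, and 17945 of 17946 had a symbol in RefSeq's table of assembly ARS1.2. No coordinates or sequences were used.

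Values were tested as log2(FPKM + 1) with limma 3.58.1 (R 4.3.3), with the 6 groups in 1 fit, a robust trended prior and two-sided p-values adjusted after Benjamini and Hochberg over all 6058 features above 0.5 FPKM in at least 5 libraries. The threshold was 0.05. The fit was checked only on shuffled libraries in which very large changes were put into well detected features. Whether it would call changes as small as those seen here was not checked. Counts per library were compared by exact permutation over 252 assignments, which cannot give a two-sided p under 0.00794 (Python 3.11.15, numpy 2.4.6, pandas 2.3.3, scipy 1.17.1). Genes named were the 12 with a symbol and the lowest p in each direction, the 15 most abundant with a symbol above 0 in all 10 libraries, up to 6 of each of 23 gene lists in order of libraries above 0, and the feature of lowest interaction p. The groups, lists and tests were chosen with earlier results of these data known. Alternatives were the pseudocount, the filter, the scaling, sample weights, the groups in the fit, a replicate block and leaving out libraries. Some genes that the rule names are not reported here.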

Additional observations from a re-analysis of the deposited data

Results flagged for a closer look

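A search of 42 sets of 5 values looked for a value far from the other 4, with a gap over 0.71 of the range. Independent normal values give such a gap in about 1 set in 20. Of the 42, 6 had one, and all 6 were in HMG-8 or HSG-5. Several sets are related measures of the same libraries, so that rate need not hold, and the count was not tested against it. HMG-8 had 786 features at 1 FPKM or more, against 2069 to 2588 in the other HMG libraries, but 297 features at 10 FPKM or more, against 109 to 156. HSG-5 had 357 features at 1 FPKM or more, against 1813 to 2381 in the other HSG libraries. Features without an NCBI gene number held 66.0% of the FPKM of HSG-5, against 72.1% to 74.3%. PXMP4 had 104 FPKM (103.78) in HSG-5, against 59.8 to 71.7, and LOC108634774 had 461 FPKM (461.31), against 3.63 to 26.0. HMG-10 also had 104 FPKM of PXMP4. What set these 2 libraries apart was not tested.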

How the results depend on the processing

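The number of called features was 0 with a pseudocount of 0.1, without a filter, after rescaling, with sample weights and with HMG and HSG alone in the fit. It was 1 without HMG replicate 5 (TEX261), 1 without HMG replicate 8 (TFAP4, log2 fold change 1.67) and 1 without HMG-8 and HSG-5 (TFAP4, 1.66, limma adjusted p = 0.00533), so it ranged from 0 to 1 when single libraries were left out. Features with an unadjusted p under 0.05 numbered 119 with HMG and HSG alone in the fit and 790 of 20125 without a filter, against 308. The interaction count was 0 in all 37 alternatives. Same-numbered HMG and HSG libraries did not deviate together (correlations of -0.027 to 0.029 across features, none above 0.1). Values that are mostly 0 could hide a pairing, so whether the numbers pair the libraries cannot be told from this. With a replicate block, 0 features were called, 310 had an unadjusted p under 0.05, and the difference in features at 1 FPKM or more was 243.4 (exact sign flips, p = 0.625, where 0.0625 is the smallest possible). That difference ranged from -101.6 (without HSG-5) to 542.0 (without HMG-8), and the share of squared distances from 11.5% to 12.4%, when a library was left out.

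Features above 0 in all HMG and no HSG libraries numbered 0 at 0.5 FPKM or more, 45 in at least 4 of 5 libraries and 33 without HMG-8 and HSG-5, and 4 to 30 when 1 library was left out, with the highest count without HMG-8, 11 without HSG-8 and 6 or more without any library but HSG-5. The reverse numbered 11 in at least 4 of 5 libraries, 13 without both, and 0 to 10 when 1 was left out, with the highest without HSG-5, 3 without HMG-10 and 1 without HSG-9. The 14 features that did not overlap became 20 to 83, with the highest without HMG-8. Fewer libraries make each of these easier to reach.

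The 24 genes of lowest p kept their direction in every alternative that gave a value. They were chosen by p in these same libraries, so a kept direction is no separate support. TFAP4, TEX261, SPRY2, PAQR7, CAMK2G, CD200 and FOXA2 failed the filter in some alternatives and gave no value there. For PAQR7 and CAMK2G this included the fit without HSG-5. Among the abundant genes, rescaling turned LOC108636664 to -0.12, LOC108636663 to -0.10 and PXMP4 to -0.17. Without HMG-8 and HSG-5, LOC108636659 was -0.0091, LOC108636657 -0.0046 and LOC108636660 0.43. When 1 library was left out, LOC108636663 ranged from -0.0093 to 0.23, LOC108636660 from -0.38 to 0.22, PXMP4 from -0.069 to 0.19, LOC108634774 from -1.72 to 0.11 and NIPSNAP1 from -1.0 to 0.31. None of these was past the threshold, and the cause was not tested.

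Each group has 5 libraries, compared here without counts and with unstated animals, and most genes were listed at 0 in most libraries. The median standard error was 0.45 on the log2 scale, and the absence of a call does not show that the sizes are alike.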

Other observations

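The span of a gene in the genome table was compared with the number of libraries in which it was found. The median span was 10847 bases for the 3777 genes above 0 in none of the 10 libraries, 28766 for the 4733 above 0 in 3 to 5, 50097 for the 1595 above 0 in 6 or 7 and 57895 for the 530 above 0 in 8 or 9. For the 54 genes above 0 in all 10, which include the 8 abundant genes of 681 to 684 bases, it was 20541 bases. HMG-8 held fewer features than the other HMG libraries but the highest summed FPKM of the 10, 82747.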
